A study of Mus musculus with 6 samples.

Results

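Interleukins are secreted signalling proteins, and they and their receptor chains were examined by transcript in whole mouse kidney in which the transferrin receptor TfR1 had been deleted from part of the nephron. Members were the genes whose symbol begins with Il followed by a digit, which gave 83 of the 24422 genes in the count tables: 39 ligands, 41 receptor chains and 3 other genes. Changes were examined for the members with at least 10 counts in 3 or more of the 6 libraries. There were 46 of these, made up of 13 ligands, 31 receptor chains and 2 other genes.

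RNA sequencing covered 2 groups of 3 C57BL/6 mice at postnatal day 60, all on a diet with 220 ppm iron. Controls were wild type. Knockouts (TfR1KO;KspCre) carried TfR1 alleles with floxed exons and the KspCre transgene, a Cre recombinase driven by the Ksp-cadherin promoter, which is active in the distal nephron and collecting duct. Leukocytes, stroma and vessels are not targeted by this driver, so these cells keep the gene. The comparison asks how kidney transcripts differ when iron uptake through TfR1 is lost in these segments.

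Interleukins fall into families that share receptor chains. The IL-1 family, which includes IL-1, IL-18, IL-33 and the IL-36 proteins, signals through receptors that recruit MyD88 and lead to NF-kB. IL-2, IL-4, IL-7, IL-9, IL-15 and IL-21 use the common gamma chain (Il2rg) with JAK1, JAK3 and STAT proteins, whereas IL-6 and IL-11 use gp130 (Il6st). In kidney, tubule epithelium releases some of these proteins after injury (IL-18, IL-34, IL-36), and resident and infiltrating leukocytes carry many of the receptors.

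Interleukin receptor transcripts were mostly higher in knockouts. Of the 46 members over the count minimum, 45 entered the test, and 21 of these were called, 18 higher and 3 lower (edgeR's quasi-likelihood test over all genes, adjusted p under 0.05). Among all 15171 genes tested 17.2% were called, 10.6% higher and 6.64% lower. An unadjusted p under 0.05 was seen for 32 members and for 38.6% of all genes. The largest rises were those of the IL-36 alpha gene Il1f6, the IL-1 receptor antagonist gene Il1rn and the IL-7 receptor gene Il7r, while Il15, Il15ra and Il22ra1 fell. The median log2 fold change, knockout against control, was 1.26 over the 45 members and 0.02 over all genes. Some members passed the count minimum only through the group in which they were high. Il1f6, Il1rn and Il12rb1 had under 10 counts in each control. Such members had to differ, so the counts of calls are a description.

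Total counts ranged from 11501053 to 21001341 per library, with knockout 3 the smallest. Control 2 stood apart in its sex-linked transcripts, with 52 counts of Xist and 3980 counts summed over 4 Y-linked genes, against 10458 to 23845 and 3 to 5 in the other libraries. Sex was not in the labels. Tfrc, which encodes TfR1, had 2783, 2856 and 1032 counts in the controls, and the knockouts had 4368, 1713 and 530 (edgeR, adjusted p 0.911), so the counts over the whole gene gave no check of the deletion. The floxed exons are a small part of the gene and cells outside the Cre domain keep it.

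The calls lay close to the threshold, and their number changed with single libraries. Adjusted p-values of the 21 called members ran from 0.0271 to 0.0489 (edgeR), and another 9 members lay between 0.05 and 0.1. Without control 1, 2 or 3 there were 0 called members and 0 called genes in all, and the smallest adjusted p of a member was 0.0805, 0.118 and 0.0927 (edgeR). Each of these fits had 26 members at an unadjusted p under 0.05, against 31.0%, 27.4% and 30.9% of all genes. Without knockout 2 or knockout 3 there were also 0 called members (0.474% and 0.013% of all genes were called), with smallest adjusted p-values of 0.0540 and 0.0564. At an unadjusted p under 0.05 there were 30 and 27 members, against 29.9% and 28.9% of all genes. Without knockout 1 there were 28 called members, and 34.4% of all genes were called. Those gained there were Il33, Il1b, Il1f5, Il12rb1, Il20rb, Il11ra1 and Il5ra. In each of the 6 fits without a library all 21 members kept their direction and an unadjusted p of at most 0.0349, but they had been chosen with all libraries included. The median move of their log2 fold changes was 0.09, 0.11 and 0.13 without control 1, 2 and 3, 0.46 without knockout 2 and 0.22 without knockout 3. With limma-voom 14 of the 21 were called and no other member, where 13.4% of all genes were, and DESeq2's Wald test called 29 members, where 32.2% of all genes were. The calls of Il7r, Il2rb, Il10ra, Il1rl2, Il2ra, Il16 and Il22ra1 were lost with limma-voom, at adjusted p-values from 0.0547 to 0.102.

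Interleukin ligands come first. Of the 13 tested, 4 rose (Il1f6, Il1rn, Il34 and Il16), 1 fell (Il15) and 8 were not called, where 10.6% of all genes were called higher and 6.64% lower. Values per library are TMM-normalised counts per 1000000 counts (CPM), and fold changes are on the log2 scale with their standard error (SE). In whole tissue, fewer cells of a type and less RNA per cell cannot be told apart.

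**Figure D1:**
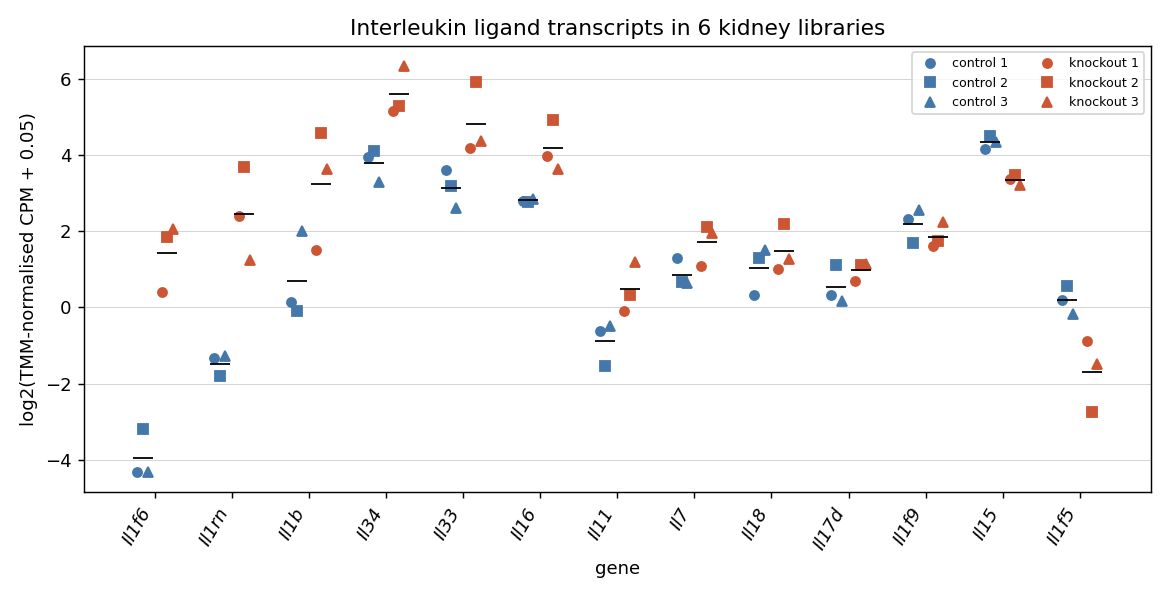
Log2 of TMM-normalised CPM (plus a constant of 0.05) of the 13 interleukin ligand genes tested, 1 point per library, with controls in blue and knockouts in red and a line at the mean of the log2 values of each group. Il1f6 and Il1rn show the widest gaps between the groups, and Il15 is the called ligand that sits lower in all 3 knockouts.

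IL-36 alpha, an epithelial alarm cytokine of the IL-1 family, is encoded by Il1f6 (chromosome 2, 24070938 to 24081222; GENCODE M1 on mm9). Il1f6 had 0, 1 and 0 counts in controls 1 to 3 and 26, 70 and 54 counts in knockouts 1 to 3. The transcript was therefore close to absent from all 3 controls and present in every knockout, most of all in knockout 2 by count. Over the groups 150 counts stood against 1, a ratio of 151 after scaling to library size (95% interval 26.7 to 6010, counting error alone). The fit gave a log2 change of 6.85 (SE 0.93, edgeR adjusted p 0.0271), a size that depends on the handling of zeros and was 8.74 without control 2.

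Il1rn encodes the IL-1 receptor antagonist, which occupies the IL-1 receptor without signalling. It was at 0.348, 0.235 and 0.36 CPM in controls 1 to 3 and 5.25, 12.7 and 2.3 CPM in knockouts 1 to 3. Every knockout lay above every control, and knockout 3 was the lowest of the knockouts. This was a log2 difference of 4.40 (SE 0.72, edgeR adjusted p 0.0277), and 3.56 without knockout 2. One of its annotated promoters holds a match to the NF-kB motif, shown in capitals in the 250 bases before that start site (RefSeq, GRCm38.p6, chr2:24345121-24345370, plus strand), where the match begins 51 bases before the start. The promoter is shown because Il1rn and Il16 were the called genes whose promoters held this motif.
Il1rn: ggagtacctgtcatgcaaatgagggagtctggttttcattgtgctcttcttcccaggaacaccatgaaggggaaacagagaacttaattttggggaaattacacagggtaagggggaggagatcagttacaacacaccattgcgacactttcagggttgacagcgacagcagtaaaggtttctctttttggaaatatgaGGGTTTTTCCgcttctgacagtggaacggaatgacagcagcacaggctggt

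IL-34 is a ligand of the CSF1 receptor made by tubule epithelium, and its gene Il34 (chromosome 8, 113265729 to 113329824) was the most abundant ligand transcript per kb of exon in knockouts. Il34 was at 15.3, 17.2 and 9.73 CPM in controls 1 to 3 and 35.6, 38.9 and 80.1 CPM in knockouts 1 to 3. The groups did not overlap, and knockout 3 was the highest library. Its fitted log2 change came to 1.87 (SE 0.37, edgeR adjusted p 0.0311). Its mean level went from 7.19 to 26.3 CPM per kb, which moved it from place 9 to place 2 among the tested members, after Il6st. Its receptor gene Csf1r, a macrophage marker, was at 105.7, 117 and 94.0 CPM in controls and 105.6, 208 and 72.1 CPM in knockouts, with overlapping groups (log2 fold change 0.28, SE 0.37, edgeR adjusted p 0.601). Exons of Il34 overlap Gm15894 and Gm15895 on the opposite strand, and the strand setting of the counting was not given in the sources used here, so reads of these genes could not be separated.

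Il16 encodes a chemoattractant for CD4+ cells that T cells store as a precursor. Its level was 6.92, 6.76 and 7.14 CPM in controls 1 to 3 and 15.8, 29.9 and 12.3 CPM in knockouts 1 to 3. The 3 controls were nearly equal, and all 3 knockouts were higher, knockout 2 the most. The change came to a log2 value of 1.48 (SE 0.35, edgeR adjusted p 0.0376). The gene overlaps 2310044K18Rik and Stard5 on the opposite strand, so its counts carry the same uncertainty. The promoter with an NF-kB match (GRCm38.p6, chr7:83655496-83655745, minus strand) is shown 5′ to 3′, with the match in capitals beginning 49 bases before the start.
Il16: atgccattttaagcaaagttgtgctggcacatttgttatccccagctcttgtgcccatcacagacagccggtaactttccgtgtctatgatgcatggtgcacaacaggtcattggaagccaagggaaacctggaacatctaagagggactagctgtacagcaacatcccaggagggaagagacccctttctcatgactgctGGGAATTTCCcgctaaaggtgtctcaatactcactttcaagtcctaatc

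IL-15 sustains natural killer cells and memory CD8+ T cells and is made by tubule epithelium and myeloid cells. Il15 (chromosome 8, 84855536 to 84927121) was at 17.9, 22.5 and 19.99 CPM in controls 1 to 3 and 10.4, 11.1 and 9.12 CPM in knockouts 1 to 3. All knockouts lay below all controls, and the 3 knockouts were close together. On the log2 scale the change was -0.98 (SE 0.18, edgeR adjusted p 0.0297). Its partner chain Il15ra, which presents IL-15 at the cell surface, fell too. Il15ra was at 24, 22.2 and 30.9 CPM in controls 1 to 3 and 16.2, 12.9 and 15.2 CPM in knockouts 1 to 3, with groups that did not overlap. This was a log2 difference of -0.79 (SE 0.19, edgeR adjusted p 0.0384), and with library size alone as the scaling it was -0.53 and not called (edgeR, adjusted p 0.0921). The transcripts of this ligand and its own receptor chain thus lay lower in the libraries in which the other chains of the same receptor, Il2rb and Il2rg, lay higher.

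Of the 8 ligands that were not called, 5 belonged to the IL-1 family, and Il33, Il1b and Il1f5 among them had the values furthest apart between libraries. Il33, an alarm cytokine held in the nucleus of stromal and epithelial cells, was at 12.2, 9.05 and 6.0 CPM in controls 1 to 3 and 17.9, 60.5 and 20.6 CPM in knockouts 1 to 3. Its groups did not overlap, but knockout 2 stood far above the other knockouts. Its fitted log2 change came to 1.86 (SE 0.53, edgeR adjusted p 0.0525), and 1.08 without knockout 2. Il1b, the gene of the inflammatory cytokine IL-1 beta, was at 1.04, 0.882 and 3.96 CPM in controls 1 to 3 and 2.8, 23.7 and 12.3 CPM in knockouts 1 to 3, and knockout 1 lay below control 3. The change came to a log2 value of 2.73 (SE 0.89, edgeR adjusted p 0.0724). Il1f5, the gene of the IL-36 receptor antagonist, was at 1.09, 1.41 and 0.84 CPM in controls 1 to 3 and 0.491, 0.10 and 0.306 CPM in knockouts 1 to 3, lower in all 3 knockouts. On the log2 scale the change was -1.87 (SE 0.57, edgeR adjusted p 0.0623). Without knockout 1 all 3 were called, with log2 fold changes of 2.15 for Il33, 3.20 for Il1b and -2.52 for Il1f5 (edgeR, adjusted p 0.0194, 0.0161 and 0.0269). The value of Il1b was 1.94 without knockout 2 and 3.73 without control 3, and it was not called in either fit (edgeR, adjusted p 0.193 and 0.0986).

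The other 5 ligands that were not called had smaller differences. Il11, a gp130 cytokine, was at 0.597, 0.294 and 0.66 CPM in controls 1 to 3 and 0.883, 1.2 and 2.22 CPM in knockouts 1 to 3, with a log2 change of 1.44 (SE 0.51, edgeR adjusted p 0.0882). Its groups did not overlap, at a level near 1 CPM. Il7, a survival factor of lymphocytes, was at 2.39, 1.53 and 1.5 CPM in controls 1 to 3 and 2.06, 4.27 and 3.83 CPM in knockouts 1 to 3 and had a log2 change of 0.90 (SE 0.40, edgeR adjusted p 0.143). Il18, which is activated by caspase-1, was at 1.19, 2.41 and 2.76 CPM in controls 1 to 3 and 1.96, 4.47 and 2.37 CPM in knockouts 1 to 3 (log2 fold change 0.47, SE 0.47, edgeR adjusted p 0.486). Both had overlapping groups. Il1f9, which encodes IL-36 gamma, was at 4.98, 3.17 and 5.82 CPM in controls 1 to 3 and 2.99, 3.26 and 4.67 CPM in knockouts 1 to 3 (log2 fold change -0.36, SE 0.34, edgeR adjusted p 0.467), and its groups overlapped. Il17d had a log2 change of 0.40 (SE 0.38, edgeR adjusted p 0.464). Among the other genes, Il18bp, which encodes the secreted IL-18 binding protein, was at 9.4, 7.29 and 8.16 CPM in controls 1 to 3 and 11, 11.2 and 12.2 CPM in knockouts 1 to 3. All knockouts were above all controls by a small margin, and the log2 fold change was 0.47 (SE 0.20, edgeR adjusted p 0.135). Il1bos, an antisense transcript of the Il1b locus, had 11, 9 and 10 counts in controls and 2, 11 and 3 in knockouts and was not tested.

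Receptor chains made up 16 of the 21 calls, and 31 of the 45 members tested were receptor chains. Of the 31 tested, 14 rose, 2 fell and 15 were not called, with a median log2 fold change of 1.26. Over all genes 10.6% were called higher and 6.64% lower. Knockouts and controls were fully separate for 24 of the 31 receptor chains, with knockouts higher in 20 and lower in 4. Among all genes tested this held for 46.0%, knockouts higher in 23.8% and lower in 22.2%. By family, 5 of 6 tested IL-1 family receptor chains and 6 of 8 in the common gamma chain family (IL-13 receptor chains included) rose, and 1 of these 8 fell. None of the 5 IL-17 receptor chains was called.

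**Figure D2:**
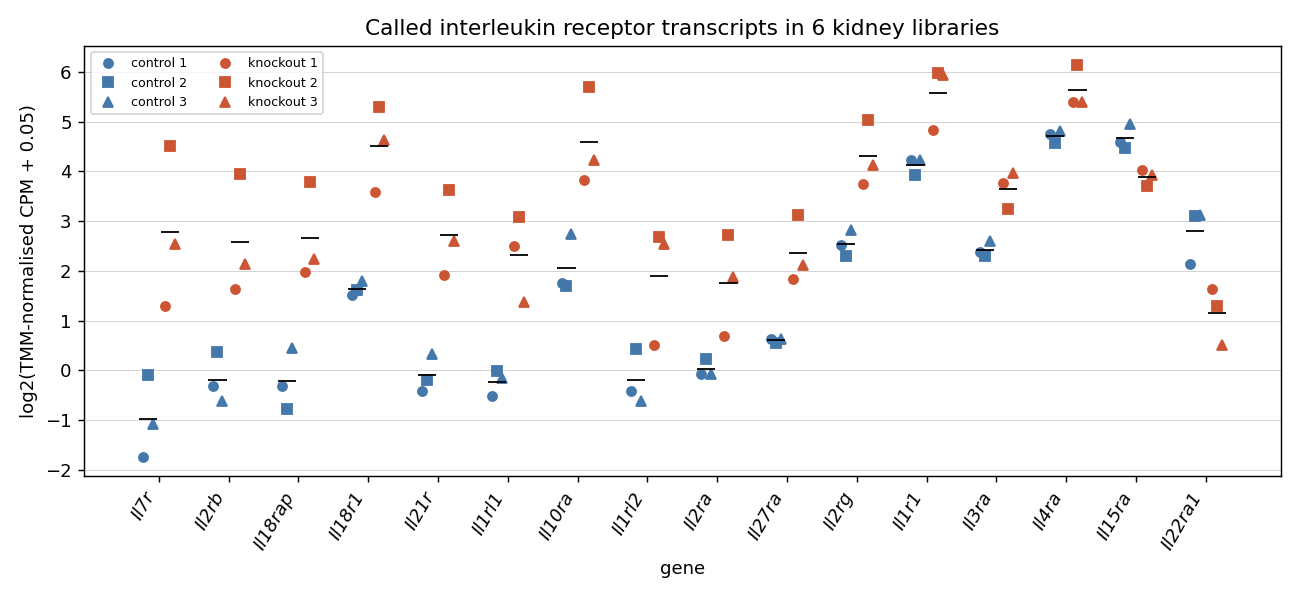
Log2 of TMM-normalised CPM (plus a constant of 0.05) of the 16 called interleukin receptor genes, 1 point per library, with controls in blue, knockouts in red and a line at the mean of the log2 values of each group. The 3 knockouts lie on 1 side of the 3 controls for all 16 genes, and knockout 2 is the highest library for 13 of the 14 genes that rose.

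The chains of the IL-18 receptor rose together. Il18r1, the binding chain, was at 2.79, 3.0 and 3.42 CPM in controls 1 to 3 and 11.9, 39.4 and 24.9 CPM in knockouts 1 to 3, with a log2 change of 3.05 (SE 0.44, edgeR adjusted p 0.0271). Il18rap, the signalling chain, was at 0.746, 0.529 and 1.32 CPM in controls 1 to 3 and 3.88, 13.8 and 4.67 CPM in knockouts 1 to 3 and had a log2 change of 3.10 (SE 0.64, edgeR adjusted p 0.0319), which was 2.30 without knockout 2. In both genes every knockout lay above every control and knockout 2 was the highest. These chains are carried by T cells and natural killer cells. Il18r1 has a promoter with 2 matches to the STAT motif, which begin 219 and 152 bases before the start and are in capitals (GRCm38.p6, chr1:40465756-40466005, plus strand). It is shown as the called gene with the largest number of STAT matches in 1 window.
Il18r1: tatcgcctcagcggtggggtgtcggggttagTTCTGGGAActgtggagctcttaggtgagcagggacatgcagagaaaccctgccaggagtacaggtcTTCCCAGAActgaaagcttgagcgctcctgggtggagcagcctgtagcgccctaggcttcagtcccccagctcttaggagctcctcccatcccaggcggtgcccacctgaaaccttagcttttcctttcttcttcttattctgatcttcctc

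Receptors for IL-33, IL-36 and IL-1 belong to the same family. Il1rl1 encodes ST2, the IL-33 receptor of type 2 lymphoid cells, mast cells and regulatory T cells. It was at 0.647, 0.94 and 0.84 CPM in controls 1 to 3 and 5.59, 8.48 and 2.53 CPM in knockouts 1 to 3, and its log2 fold change was 2.77 (SE 0.51, edgeR adjusted p 0.0295). Il1rl2 encodes the IL-36 receptor and was at 0.697, 1.29 and 0.60 CPM in controls 1 to 3 and 1.37, 6.32 and 5.75 CPM in knockouts 1 to 3, where knockout 1 was just above control 2. This was a log2 difference of 2.37 (SE 0.65, edgeR adjusted p 0.0489). Il1r1, the signalling receptor for IL-1 found on epithelium, endothelium and stroma, had the highest level per kb of exon among the called genes of this family and was at 18.6, 15.2 and 18.8 CPM in controls 1 to 3 and 28.6, 63.1 and 61.7 CPM in knockouts 1 to 3. Its fitted log2 change came to 1.54 (SE 0.31, edgeR adjusted p 0.0313). Il1rap, the accessory chain that all 3 of these receptors share, was at 11.8, 13.6 and 11.4 CPM in controls 1 to 3 and 12.5, 16 and 12.5 CPM in knockouts 1 to 3, with overlapping groups and a log2 change of 0.15 (SE 0.19, edgeR adjusted p 0.593).

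These receptor genes are neighbours. On chromosome 1, Il1r2, Il1r1, Il1rl2, Il1rl1, Il18r1 and Il18rap lie in this order on the plus strand between 40141613 and 40608550 (mm9), a span of 466938 bases. The 5 of these 6 that were tested were all called higher. Il1r2, the decoy receptor, was under the count minimum, with 5, 5 and 4 counts in controls and 8, 87 and 1 in knockouts. Il1rl1 and Il18r1 are 136 bases apart, so reads past the end of the first could be counted in the other. The IL-1 family ligands on chromosome 2, between 24008681 and 24207014 (198334 bases), did not move as a block. There Il1f6 and Il1rn were called higher, Il1f9 and Il1f5 were not called and had log2 fold changes below 0, and Il1f8 and Il1f10 had at most 2 counts in any library.

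**Figure D3:**
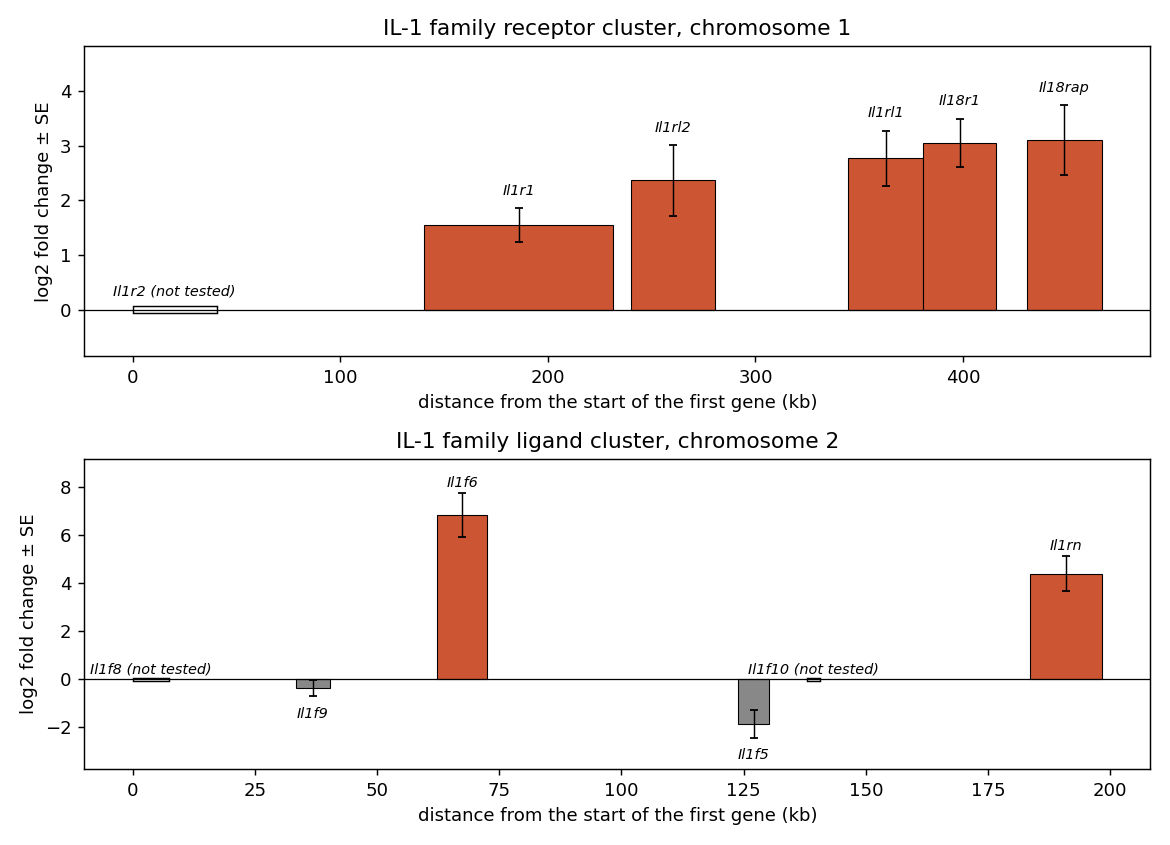
Log2 fold change (knockout against control, with SE) of IL-1 family genes, drawn at their distance in kb from the start of the first gene of each cluster, with called genes in red, tested genes that were not called in grey and genes not tested as open boxes. All 5 tested receptor genes lie above 0, whereas the ligand genes lie on both sides.

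Common gamma chain receptors gave the next set. Il7r, which marks naive and memory T cells and innate lymphoid cells, was at 0.249, 0.882 and 0.42 CPM in controls 1 to 3 and 2.4, 22.7 and 5.75 CPM in knockouts 1 to 3. Knockout 2 was far above the other knockouts, which still exceeded all controls. The change came to a log2 value of 4.31 (SE 0.97, edgeR adjusted p 0.0349), and it was 2.96 without knockout 2 and 4.92 without control 2. Il2rb, shared by the IL-2 and IL-15 receptors, was at 0.746, 1.23 and 0.60 CPM in controls 1 to 3 and 3.04, 15.4 and 4.37 CPM in knockouts 1 to 3 (log2 fold change 3.14, SE 0.71, edgeR adjusted p 0.0356, 2.09 without knockout 2). Il2ra (CD25), the chain that marks regulatory and activated T cells, was at 0.896, 1.12 and 0.90 CPM in controls 1 to 3 and 1.57, 6.52 and 3.6 CPM in knockouts 1 to 3 (log2 fold change 2.00, SE 0.55, edgeR adjusted p 0.0489). Without knockout 2 it was 1.39. For Il2ra the lowest knockout and the highest control were close, and with no filter on low counts the call was lost (edgeR, adjusted p 0.0511).

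Il21r, found on B, T and natural killer cells, was at 0.697, 0.823 and 1.2 CPM in controls 1 to 3 and 3.73, 12.3 and 5.98 CPM in knockouts 1 to 3. On the log2 scale the change was 3.01 (SE 0.53, edgeR adjusted p 0.0288), and 2.41 without knockout 2. Il2rg, the common chain itself, was at 5.67, 4.88 and 7.02 CPM in controls 1 to 3 and 13.4, 32.8 and 17.4 CPM in knockouts 1 to 3, with a log2 change of 1.86 (SE 0.37, edgeR adjusted p 0.0311). The groups did not overlap in either gene. Of the 100-base words of the Il2rg transcript 59.8% occurred in no other gene, as Gm20489 shares its exons on the same strand, so its counts are uncertain. Il4ra, the receptor for IL-4 and IL-13 on leukocytes and epithelium, was at 26.9, 23.7 and 28 CPM in controls 1 to 3 and 41.9, 70.2 and 42.2 CPM in knockouts 1 to 3 and rose by less (log2 fold change 0.97, SE 0.23, edgeR adjusted p 0.0378). Il13ra1, the chain that pairs with Il4ra outside blood cells, was at 66.8, 93.1 and 56.2 CPM in controls 1 to 3 and 89.1, 116 and 80.6 CPM in knockouts 1 to 3, with overlapping groups (log2 fold change 0.40, SE 0.23, edgeR adjusted p 0.236).

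IL-10 receptors went both ways. Il10ra, the ligand-binding chain carried by leukocytes, was at 3.33, 3.17 and 6.6 CPM in controls 1 to 3 and 14.1, 52.1 and 18.7 CPM in knockouts 1 to 3, a log2 change of 2.70 (SE 0.58, edgeR adjusted p 0.0326) that was 1.91 without knockout 2. Il10rb, the broadly expressed second chain, was at 67.5, 61.9 and 84.5 CPM in controls 1 to 3 and 70.9, 70.5 and 69.2 CPM in knockouts 1 to 3. Its groups overlapped, its log2 fold change was -0.02 (SE 0.15, edgeR adjusted p 0.926), and the sign turned to 0.24 with library size alone. Reads of Il10rb and the overlapping Ifnar2 may be shared. Il22ra1, an epithelial receptor chain for IL-22, was at 4.38, 8.58 and 8.64 CPM in controls 1 to 3 and 3.04, 2.41 and 1.38 CPM in knockouts 1 to 3. It was lower in all 3 knockouts, least so in knockout 1, and the log2 fold change was -1.65 (SE 0.42, edgeR adjusted p 0.0426). Il20rb, an epithelial chain of the IL-20 receptor, was at 1.84, 1.65 and 1.92 CPM in controls 1 to 3 and 2.31, 3.96 and 7.2 CPM in knockouts 1 to 3, higher in all 3 knockouts and not called (log2 fold change 1.30, SE 0.45, edgeR adjusted p 0.082).

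In the gp130 and IL-12 family 1 of the 6 tested receptor chains rose. Il27ra, a receptor of T cells and natural killer cells, was at 1.49, 1.41 and 1.5 CPM in controls 1 to 3 and 3.53, 8.63 and 4.29 CPM in knockouts 1 to 3 (log2 fold change 1.90, SE 0.41, edgeR adjusted p 0.0332). Palm3 overlaps it on the opposite strand. Il6st, which encodes gp130, was the most abundant member in both groups at 31.4 and 44.5 CPM per kb, and the libraries overlapped at 171, 210 and 110 CPM in controls 1 to 3 and 192, 337 and 166 CPM in knockouts 1 to 3 (log2 fold change 0.50, SE 0.34, edgeR adjusted p 0.312). Il6ra, the IL-6 binding chain, was at 5.77, 4.82 and 4.8 CPM in controls 1 to 3 and 13, 23.3 and 5.82 CPM in knockouts 1 to 3. Its knockouts were all above the controls, but knockout 3 was near them, and the log2 fold change was 1.45 (SE 0.48, edgeR adjusted p 0.0724). Il11ra1 was at 85.6, 83.3 and 89.8 CPM in controls 1 to 3 and 76.6, 60.8 and 55.3 CPM in knockouts 1 to 3, lower in all 3 knockouts (log2 fold change -0.42, SE 0.15, edgeR adjusted p 0.0919), and 68.6% of its 100-base words occurred in no other gene. Il12rb1 and Il12rb2, the chains of the IL-12 receptor, had log2 fold changes of 2.26 (SE 0.63, edgeR adjusted p 0.0518) and -0.01 (SE 0.33, edgeR adjusted p 0.988). Without knockout 2 the value of Il12rb1 was 1.60, and without knockout 1 it was 2.58 and called (edgeR, adjusted p 0.0200). Il12rb1 had 6, 2 and 5 counts in controls and 12, 40 and 12 in knockouts, so it passed the count minimum only through the knockouts. The value of Il12rb2 turned sign under 5 of the alternatives.

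Common beta chain receptors are those for IL-3 and IL-5. Il3ra was at 5.12, 4.88 and 6.0 CPM in controls 1 to 3 and 13.5, 9.38 and 15.6 CPM in knockouts 1 to 3 and rose (log2 fold change 1.26, SE 0.26, edgeR adjusted p 0.0323). It was one of 3 genes that rose, with Il34 and Il1f6, whose CPM were highest in knockout 3. Il5ra, a receptor of eosinophils and B-1 cells, was at 9.11, 4.06 and 7.38 CPM in controls 1 to 3 and 4.66, 2.41 and 2.3 CPM in knockouts 1 to 3. Knockout 1 lay within the range of the controls, and the log2 fold change was -1.13 (SE 0.43, edgeR adjusted p 0.103).

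IL-17 receptor chains, which are broad epithelial genes, differed little. Il17ra, the shared chain, was at 35.5, 43.4 and 41.2 CPM in controls 1 to 3 and 31.7, 32.8 and 27.4 CPM in knockouts 1 to 3, below the controls in every knockout (log2 fold change -0.38, SE 0.14, edgeR adjusted p 0.0946). Il17rb was at 11.2, 12.2 and 12.8 CPM in controls 1 to 3 and 13.5, 14 and 21 CPM in knockouts 1 to 3 (log2 fold change 0.42, SE 0.23, edgeR adjusted p 0.212). Il17rc was at 30.8, 29.4 and 28.6 CPM in controls 1 to 3 and 34, 32.9 and 49.9 CPM in knockouts 1 to 3 (log2 fold change 0.39, SE 0.19, edgeR adjusted p 0.168). For both of these genes knockout 3 was well above the other 5 libraries. Il17rd was at 19.7, 17 and 20.5 CPM in controls 1 to 3 and 24.3, 28 and 22.7 CPM in knockouts 1 to 3 (log2 fold change 0.39, SE 0.16, edgeR adjusted p 0.118), with all knockouts higher. Il17re, the receptor for IL-17C, was at 39.95, 31.6 and 36 CPM in controls 1 to 3 and 47.8, 32.5 and 51.2 CPM in knockouts 1 to 3, with overlapping groups (log2 fold change 0.29, SE 0.20, edgeR adjusted p 0.325). Across these 5 chains the log2 fold changes ran from -0.38 to 0.42.

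**Figure D4:**
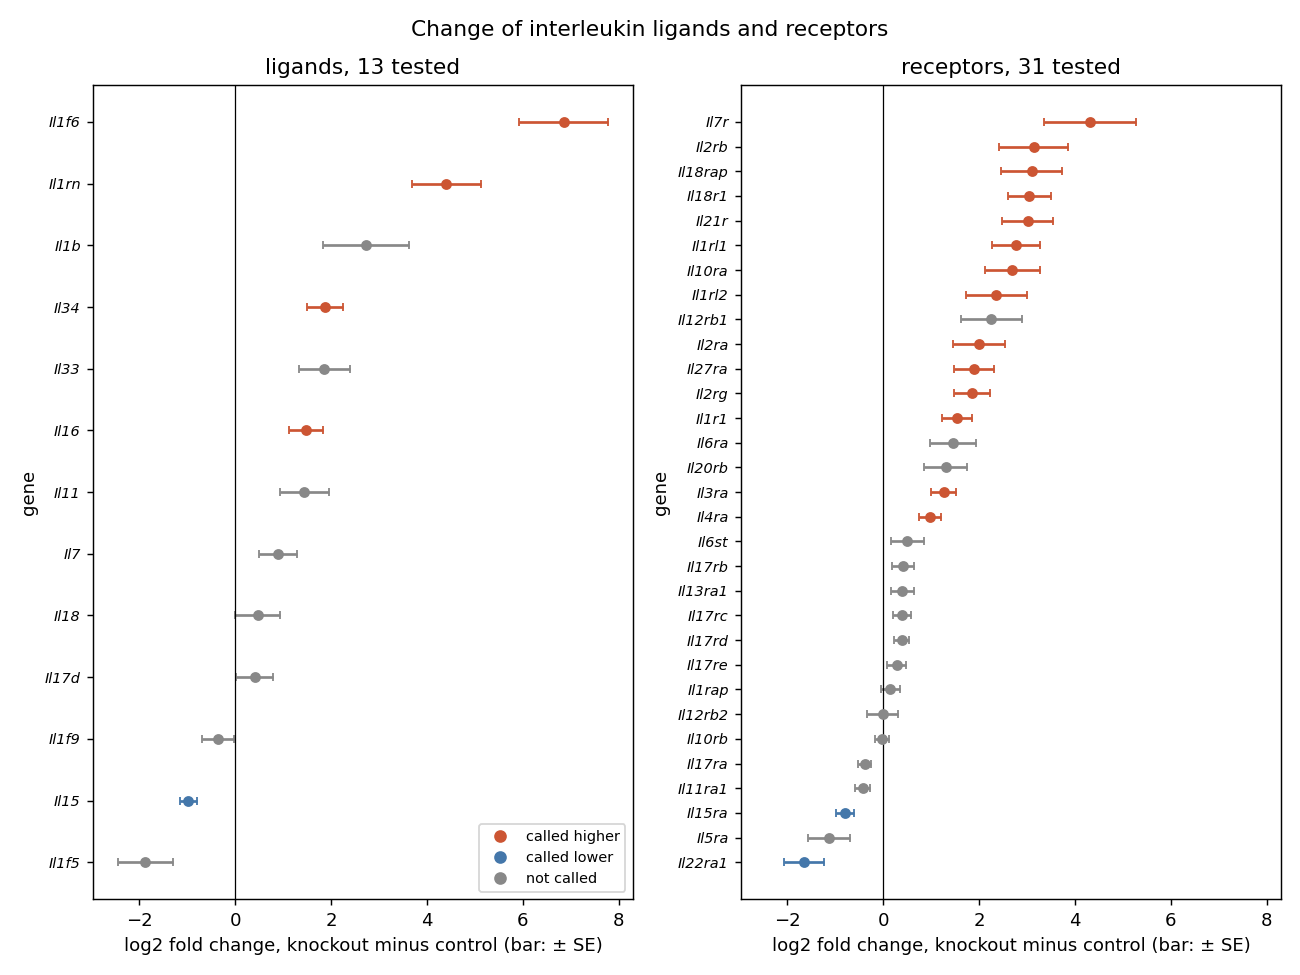
Log2 fold change (knockout against control) of the 13 tested ligand and 31 tested receptor genes with SE in 2 panels, with genes called higher in red, called lower in blue and the others in grey. Rises reach 6.85 (Il1f6), the lowest value is -1.87 (Il1f5, not called), and the IL-17 receptor chains lie near 0.

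Ligands and their receptors could be read side by side. In the IL-36 system the agonist gene Il1f6 and the receptor gene Il1rl2 rose, the agonist gene Il1f9 and the antagonist gene Il1f5 had log2 fold changes of -0.36 and -1.87 without a call, and the shared chain Il1rap had one of 0.15. For IL-33, the receptor gene Il1rl1 rose by 2.77 on the log2 scale, and the ligand gene Il33 missed the call at 1.86. For IL-18, both receptor chains rose, whereas the ligand gene Il18 had a value of 0.47 and its inhibitor Il18bp one of 0.47, neither called. IL-15 and its own chain fell by 0.98 and 0.79. Whether the pairs differed from each other was not tested.

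Promoter motifs were counted in the RefSeq windows of 250 bases before each start, on both strands. Windows were found for 66 of the 83 members (81 windows) and for 15 of the 21 called genes (24 windows). The NF-kB motif (GGG, any 2 bases, then TTTCC) was in 7.41% of member windows and 1.41% of all 32841 windows, and the AP-1 motif TGANTCA was in 17.3% and 6.75%. The STAT motif TTCNNNGAA was in 11.1% and 7.02%, and the TATA box TATAAA was in 16.1% and 12.4%. Among the windows of called genes 2 of 24 held the NF-kB motif, 4 the AP-1 motif, 2 the STAT motif and 1 the TATA box. These are letter matches in windows of which some overlap, and binding was not measured.

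Genes that act with interleukins under other names were read from a list of 46 partners, of which 45 were tested. Of these, 21 rose, 0 fell and 24 were not called (edgeR, adjusted p under 0.05), with a median log2 fold change of 0.81. Over all genes 10.6% were called higher and 6.64% lower. Without knockout 2 there were 3 called partners (Csf2rb, Osmr and Lif), without knockout 3 or any single control 0, and without knockout 1 there were 28, where 34.4% of all genes were called. Lif, a gp130 cytokine, was at 0.448, 0.294 and 0.780 CPM in controls and 9.96, 9.48 and 14.2 CPM in knockouts, a log2 fold change of 4.45. All 3 knockouts were alike and far above the controls. The gp130 relatives Clcf1 and Osmr rose by 2.28 and 2.12, and Ebi3, a subunit of IL-27 and IL-35, by 1.61. Osmr was highest in knockout 2, and its value was 1.48 without that library. Lifr, the LIF receptor gene, had a value of -0.46 and was not called.

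Shared receptor and signal transducer genes followed. The common beta chain genes Csf2rb and Csf2rb2 rose by 2.37 and 2.12, with the near-identical copies sharing some reads (93.0% and 93.2% of their 100-base words occurred in no other gene), Csf2ra by 1.00 and the TSLP receptor gene Crlf2 by 1.42. Socs3, a feedback inhibitor induced by STAT3, was at 3.73, 2.06 and 4.50 CPM in controls and 26.9, 28.0 and 20.5 CPM in knockouts. Its log2 fold change was 2.87, and the groups were far apart. Stat3 and Stat4 rose by 1.11 and 2.39. Stat4 was highest in knockout 2, its value was 1.67 without that library, and limma-voom did not call it (adjusted p 0.0518). Casp1, the protease that matures IL-1 beta and IL-18, rose by 2.49, Nfkbiz, an NF-kB cofactor, by 1.8, and the NF-kB subunit genes Relb and Nfkb2 by 1.92 and 1.26. Casp1 was not called by limma-voom (adjusted p 0.0734). Myd88, Nfkb1, Rela and Tyk2 rose by less than 2-fold, and Tyk2 was just not called by limma-voom (adjusted p 0.05002). Jak1 and Jak2 were not called, at 0.06 and 0.10, and their values were -0.12 and -0.10 without knockout 2.

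Cell markers moved with the receptor genes. The summed level of the leukocyte markers Ptprc, Coro1a and Laptm5 was 34.1 to 47.2 CPM in controls and 144 to 366 CPM in knockouts, and all 3 were called higher. T cell markers went from 5.77 to 7.68 CPM in controls to between 22.2 and 63.6 CPM in knockouts (5 of 6 called higher), and macrophage markers from 159 to 173 CPM to between 363 and 1084 CPM (6 of 7 called higher). B cell markers were at 2.70 to 4.98 and 5.64 to 26.8 CPM (0 of 4 called), natural killer cell markers at 0.945 to 1.14 and 1.69 to 7.88 CPM (0 of 1 tested called), and neutrophil markers at 4.28 to 7.38 and 6.82 to 29.2 CPM (0 of 3 tested called). Mast cell markers overlapped between the groups, at 0.294 to 3.90 and 1.03 to 3.26 CPM (0 of 4 called). No gene of these lists was at 0 in every library. The part of these cells in the receptor values was not tested.

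Knockout 2 was the highest library for the leukocyte, T cell, B cell, natural killer cell, macrophage and neutrophil lists, and for the fibroblast list. Its summed leukocyte level was 2.55 times that of knockout 1 and 2.03 times that of knockout 3, and its T cell level was 2.72 and 2.86 times theirs. By CPM, knockout 2 was also the highest library for 15 of the 18 members that rose, among them 13 of the 14 receptor genes. Knockout 3 was the highest for the other 3. The same share over all genes called higher is not reported here. Those highest in knockout 3 were the ligand genes Il34 and Il1f6 and the receptor gene Il3ra. By count Il1f6 was higher in knockout 2 (70) than in knockout 3 (54).

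Kidney cell markers moved as well. Summed proximal tubule markers were lower in every knockout (13183 to 41433 CPM in controls and 1356 to 4945 CPM in knockouts, 4 of 4 called lower). Kap made up 31293 CPM of the highest control value, that of control 2, and without that library the controls reached 21515 CPM. Fibroblast markers stood at 172 to 340.4 CPM and 406 to 1716 CPM, with Col1a1 called. Summed thick ascending limb markers were at 3460.3 to 8879 CPM in controls and 5665, 667 and 926 CPM in knockouts 1 to 3, so that knockouts 2 and 3 lay below all controls and knockout 1 within their range. Distal tubule and collecting duct markers were at 1649.9 to 2317 CPM in controls and 2259, 1135 and 375 CPM in knockouts 1 to 3. The markers differed among themselves, as Aqp2 in knockout 2 (516 CPM) lay within the controls and Atp6v1b1 in knockout 3 (257 CPM) above them. Of the thick ascending limb, distal tubule and collecting duct, podocyte and endothelium markers, 0 of 2, 0 of 3, 0 of 2 and 0 of 3 were called. The part of these changes in the interleukin values was not tested either.

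The other 37 members were under the count minimum, 26 ligands, 10 receptor chains and Il4i1. Of these, 6 had 0 counts in all libraries (Il3, Il17b, Il20, Il22, Il31 and Il11ra2), against 4664 of all 24422 genes. A further 17 had between 1 and 9 counts over all libraries together, among them the T helper cytokines Il2, Il4, Il13, Il17a and Il21, and Il10. At this depth a difference was not detectable for them. Nearest to the minimum, by the third-highest count, were Il17f (9), Il31ra (8) and Il1a, Il17c and Il23a (7 each) outside it, and Il1bos (10), Il12rb1 (12) and Il1f5 (14) inside it.

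The remaining 14 had 10 or more counts in total, and 5 of them are given here for their uneven counts, chosen after their values were seen. Il6, the gene of the acute-phase cytokine IL-6, had 0 counts in each control and 1, 16 and 14 counts in knockouts 1 to 3. Against a floor of 3 counts over the control group the scaled ratio was 10.4, with no allowance for counting error in knockouts. Nearly all of its counts came from knockouts 2 and 3. Il17f had 14, 9 and 31 counts in controls and 6, 0 and 0 in knockouts, a ratio of 0.112 (95% interval 0.0394 to 0.26, counting error alone). Il17c had 9, 7 and 11 counts in controls and 3 in each knockout. Il9r, the IL-9 receptor gene, had 0, 2 and 2 counts in controls and 7, 36 and 5 in knockouts, a ratio of 12.1 (4.43 to 46.2), and most of its counts came from knockout 2. Il1r2 had a ratio of 6.91 (3.92 to 13.1), and 87 of its 96 knockout counts were in knockout 2, so that its ratio was that of 1 library. These genes were not tested between groups.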

How the data were processed

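RNA of 6 whole kidneys was poly-A selected and sequenced, and the deposited files hold raw gene counts, 1 table per group. Per the study's methods and the submitters' processing notes, the authors used CASAVA 1.8.2, Trimmomatic, TopHat2 2.0.11 with the mm9 build and HTSeq. The gene annotation and strand setting are not given in the sources used here. Unique mapping lowers counts of genes with near copies.

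Groups and replicate numbers came from the sample titles, 3 libraries per group. That replicates came from separate mice is stated in the series' design. Members, ligand and receptor classes, partner genes and marker lists were chosen with earlier results of these data known. Genes given in every library were the called members and those whose average log2 CPM was 1 or more, and some below that level were added. Of the partners, those called with at least a 2-fold change were named, and Lifr, Jak1, Jak2 and smaller called ones were added, while some partner genes are not reported here by name.

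Counts were fitted with edgeR 4.0.16 in R 4.3.3 (TMM, filterByExpr with a minimum count of 10 and a minimum total of 15, glmQLFit with the legacy option, glmQLFTest, no covariate) on all 6 libraries. Benjamini-Hochberg adjustment ran over 15171 genes, with a threshold of 0.05. The SE is the size of the log2 fold change divided by the square root of F. The test was tested on simulated data with 200 changed genes. Replicates of a group differed by 52.9 to 125.5 in chi-square per degree of freedom, so each library counted once. Intervals are at 95% and cover counting error alone, since reads carry no molecular identifiers.

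Other settings tried were, for scaling, the size factors of DESeq2 1.42.0, the upper quartile or library size alone, and for filtering, none or 10 counts in each library. Tests tried were limma-voom (limma 3.58.1), the Wald test of DESeq2 and the newer quasi-likelihood version. Designs tried were a covariate of Xist over 4 Y-linked genes (log2), the replicate number as a block, leaving out each library, and a minimum of 20 counts for members. Coordinates are from GENCODE M1 on mm9. Uniqueness is the share of 100-base words of a transcript that no other gene holds. Promoters are RefSeq windows on GRCm38.p6, another build than that of the counts, and were used for sequence alone.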

Additional observations from a re-analysis of the deposited data

How the results depend on the processing

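The number of called members (21) stayed within 1.5 times under the other scalings, filters and tests, from 14 with limma-voom to 29 with DESeq2's Wald test. It was 0 with the Xist-to-Y covariate and from 0 to 28 when each library was left out. Called ligands (5) were 3 with at least 10 counts in every library, where fewer genes were tested, 8 with DESeq2's Wald test, 0 with the covariate and 0 to 8 when a library was left out. Called receptor chains (16) were 10 with limma-voom, 0 with the covariate and 0 to 20 when a library was left out. Called partners (21) were 0 with the covariate and 0 to 28 when a library was left out. Calls over all genes (2612) were 4882 with DESeq2's Wald test, 0 with the covariate and 0 to 5332 when a library was left out. Apart from the construction of these fits (1 library or 1 degree of freedom fewer), the cause was not tested. With the covariate 27 members had an unadjusted p under 0.05 (edgeR), and without it 32 had one, against 38.6% of all genes. The share of all genes in the covariate fit is not reported here.

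Groups share replicate numbers 1 to 3. Deviations from the group mean correlated between same-numbered libraries at -0.13, 0.01 and 0.21, which is no pairing. A replicate block gave 0 called members, 0 ligands, 0 receptor chains, 0 partners and 0 of all genes (edgeR), with 33 members at an unadjusted p under 0.05. The share of all genes at that level in the block fit is not reported here. Controls 1, 2 and 3 correlated best with knockouts 2, 1 and 3.

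The sign of 2 members near 0 turned. Il10rb was 0.048 with upper quartile scaling, 0.24 with library size alone and 0.11 without control 3. Il12rb2 was 0.063 with upper quartile scaling, 0.26 with library size alone, 0.0045 with at least 10 counts in every library, and without 1 library it ranged from -0.15 to 0.14, with 0.080 without control 3 and 0.14 without knockout 2. Library size alone shifted the median of all genes by 0.27 and put 81.8% of all calls higher, against 61.4%. Relative to that shift, Il10rb and Il12rb2 stayed below it.

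Depth limits the 37 members under the count minimum, for which no test was made. Knockout 3 was the shallowest library.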
